A study of Homo sapiens with 9 samples.

Results

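The genes described here make up the MHC class I antigen presentation pathway: HLA-B, HLA-C, HLA-E, B2M, TAP1, TAP2, PSMB8, PSMB9 and NLRC5. They were chosen by gene name, taking for the HLA genes the entry on chromosome 6, and they are 9 of the 58735 genes in the deposited files. RNA sequencing covered 9 libraries in 3 groups, with 3 biological replicates each. The groups were wild-type Huh-7 cells (control), Ako-3 cells, which are Huh-7 cells deficient in APOB, and Mko-3 cells, which are Huh-7 cells deficient in MTTP. Huh-7 is a human hepatoma line. APOB encodes apolipoprotein B, the structural protein of triglyceride-rich lipoproteins, and MTTP encodes the microsomal triglyceride transfer protein that loads lipid onto it. Both knockouts were made with Cas9 ribonucleoprotein and each is represented here by 1 clone, so that an effect of the deleted gene and a property of the clone cannot be told apart. The labels state that cells were grown with serum, washed, and kept overnight without serum before RNA was isolated, and this applied to the control cells as well. The same control libraries served both knockouts.

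MHC class I molecules display peptides from the cell interior to CD8 T cells and natural killer cells. Proteins are cut by the proteasome, in which the inducible subunits PSMB8, PSMB9 and PSMB10 can take the place of the constitutive subunits PSMB5, PSMB6 and PSMB7. The TAP1/TAP2 transporter carries the peptides into the endoplasmic reticulum, where they are loaded onto a heavy chain (such as HLA-B, HLA-C or HLA-E) paired with the light chain B2M. Interferon gamma raises most of these genes through factors that include IRF1, and NLRC5 is a transactivator of class I genes that acts with the RFX, CREB/ATF and NFY factors bound at their promoters. In liver, class I molecules are present at low levels on hepatocytes and rise in inflammation.

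Promoter sequences are shown for the members that hold a short element bound by interferon-regulated factors, whether or not they changed. RefSeq promoters of GRCh38.p14 were matched by symbol for 7 of the 9 genes, in 9 windows, since PSMB8 and TAP1 each have a pair of starts. Each window ran from 250 bases before to 50 bases after a start. An interferon-stimulated response element, searched on both strands as a pair of GAAA stretches with 2 bases between them, was present in 4 of these genes and in 3.57% of 35116 promoter windows. All sequences below lie on the gene's own strand and are written 5′ to 3′, and capitals mark the element, which reads as its reverse complement in TAP1 and PSMB8.
B2M, chr15:44711333-44711428, plus strand: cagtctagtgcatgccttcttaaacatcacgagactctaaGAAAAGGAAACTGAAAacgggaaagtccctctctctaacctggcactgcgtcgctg
TAP1, chr6:32853783-32853878, minus strand: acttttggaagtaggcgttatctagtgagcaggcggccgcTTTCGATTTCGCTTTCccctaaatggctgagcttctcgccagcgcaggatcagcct
TAP2, chr6:32838748-32838837, minus strand: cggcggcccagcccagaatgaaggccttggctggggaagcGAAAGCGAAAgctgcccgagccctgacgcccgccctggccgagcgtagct
PSMB8, chr6:32844042-32844091, minus strand: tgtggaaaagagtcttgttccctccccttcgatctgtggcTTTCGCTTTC

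B2M and TAP1 each held 2 overlapping copies of the element, and TAP2 and PSMB8 held 1 copy each. In TAP1 and PSMB8 only 1 of the 2 windows held it. Of these genes, TAP1 and PSMB8 were higher by adjusted p in both clones, and B2M and TAP2 did not pass in either. The windows of HLA-B, HLA-C and PSMB9 held no match to this exact string. Variant forms of the element were not searched for, so these windows may still hold one. PSMB9 lies head to head with TAP1, and its window begins at chr6:32853942. The TAP1 sequence with the element ends at chr6:32853878, upstream of PSMB9 and outside that window. The lack of a match in the PSMB9 window therefore does not describe the whole region upstream of that gene. HLA-B and HLA-C are close paralogs, and their promoters are shown side by side. The counts of these genes were not tested against each other, and no link between promoter and counts was tested. The NF-kB palindrome, searched on both strands as GGGA, any base, T, any base and CCC, was found in HLA-B, where matches on the 2 strands overlap, and in 1.39% of all windows. It is in capitals in the HLA-B sequence, and no match was present in the HLA-C window.
HLA-B, chr6:31357306-31357396, minus strand: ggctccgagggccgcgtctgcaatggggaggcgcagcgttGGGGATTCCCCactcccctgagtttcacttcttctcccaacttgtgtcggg
HLA-C, chr6:31272220-31272312, minus strand: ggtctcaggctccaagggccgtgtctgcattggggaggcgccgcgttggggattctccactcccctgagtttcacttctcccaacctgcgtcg

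Of the other elements searched on both strands, the gamma-activated sequence (TTC, 3 bases of any kind, GAA) was present in 2 of the genes, PSMB8 and TAP1, and in 7.66% of all windows. The CCAAT box, which NFY binds, was present in 5 of the genes and in 34.6% of windows, and TGACG, the core of the element bound by CREB/ATF, was present in 6 of the genes and in 24.6% of windows. These matches describe the letters of the windows and were not tested as binding sites.

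The targeted genes were examined first as a check of the labels. APOB counts were 49956, 53159 and 69752 in control, 23245, 24701 and 21863 in Ako-3, and 55013, 59666 and 49802 in Mko-3 libraries. APOB fell by 1.36 on the log2 scale in Ako-3 cells (SE 0.13, edgeR adjusted p = 7.1e-05). MTTP counts were 11817, 9144 and 11941 in control, 9821, 11307 and 9352 in Ako-3, and 1541, 1587 and 1271 in Mko-3 libraries. MTTP fell by 2.88 in Mko-3 cells (SE 0.07, edgeR adjusted p = 9.4e-19). Each clone was thus low in the gene named in its label.

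Total counts per library ranged from 14638727 to 20179760. A set of 10 hepatocyte and hepatoma markers was detected in every group, with a summed level of 18417 to 18906 CPM (counts scaled to library size) in control, 22204 to 23328 in Ako-3 and 18451 to 19341 in Mko-3 libraries. Of these, 1 was called, APOA2, which rose by 1.02 in Ako-3 cells (edgeR adjusted p = 3.6e-11). Of 13 leukocyte markers, 4 were at 0 in control and 2 in each clone. Their summed level was 295 to 314 CPM in control, 361 to 393 in Ako-3 and 364 to 387 in Mko-3 libraries, and most of it was LYZ, at a mean of 276, 334 and 339 CPM. PTPRC, the pan-leukocyte marker, had at most 2 counts in any library. The part of these differences in the results below was not tested.

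A gene was called when its absolute log2 fold change was at least 1 and its p was at most 0.05 in edgeR's quasi-likelihood test after Benjamini-Hochberg adjustment over all genes tested. In Ako-3 against control cells, 6 of the 9 genes had enough counts to be tested, and 2 were called, PSMB8 and NLRC5, both higher. The share called among all 15787 genes tested was 8.52%, 3.52% higher and 5.00% lower. In Mko-3 against control cells, 7 genes were tested and 2 were called, HLA-C and PSMB8, both higher, against 11.0% of 15745 genes called, 3.82% higher and 7.22% lower. Between the clones 8 genes were tested and 2 were called: HLA-C was higher and NLRC5 lower in Mko-3, against 5.73% of 15528 genes called, 2.26% higher and 3.47% lower. By adjusted p alone, with no threshold on the fold change, 3 genes were higher and 1 was lower in each clone against control, where 49.9% of all genes in Ako-3 (25.5% higher, 24.4% lower) and 54.0% in Mko-3 cells (26.9% higher, 27.1% lower) passed. Between the clones 2 genes were higher and 2 lower in Mko-3 cells by adjusted p alone, where 41.6% of all genes passed (21.1% higher, 20.6% lower). The median log2 fold change of the tested members was 0.55 in Ako-3 and 0.46 in Mko-3 cells, beside −0.01 over all genes in both. These medians leave out the genes not tested, and the Mko-3 median is the value of NLRC5, which did not pass the test there. They do not measure a shift of the 9 genes. For NLRC5 in both clones, and HLA-C in Mko-3 cells, only the knockout group had all 3 libraries above the cutoff of the low-count filter. Of the control libraries 2 were above it for NLRC5 and 1 for HLA-C. Between the clones HLA-C was above it in the Mko-3 libraries alone. The inclusion of these genes therefore depended on the group where they were high.

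**Figure D1:**
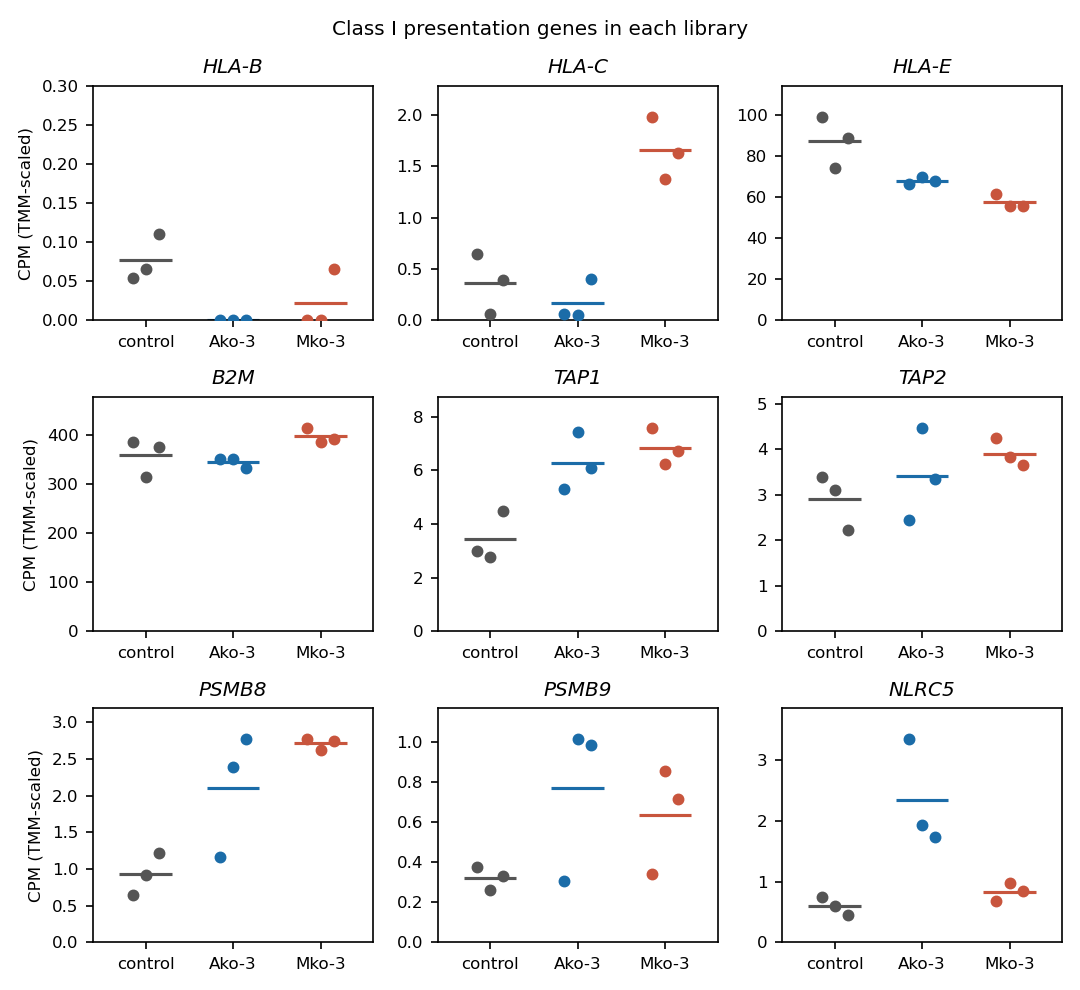
Level of each of the 9 genes in CPM (vertical axes, linear, each from 0 and on its own scale) in the 3 libraries of each group (horizontal axes), with 1 point per library and a bar at the group mean. HLA-C was high in the 3 Mko-3 libraries, NLRC5 was high in the 3 Ako-3 libraries, and TAP1 was higher in all libraries of both clones than in any control library.

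Of the heavy chains, HLA-C was higher and HLA-E lower in Mko-3 against control cells, HLA-E was lower in Ako-3 cells, and HLA-B was at the floor in every group. HLA-B, a classical heavy chain that presents peptides to CD8 T cells, had counts of 1, 1 and 2 in control, 0 in all Ako-3, and 0, 0 and 1 in Mko-3 libraries. All 3 groups were at or under 3 counts in each library, so that no fold change is given. A count of 0 allows up to 3 counts in a library, a floor that covers counting error only.

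HLA-C, a classical heavy chain that is also a ligand of killer immunoglobulin-like receptors, had counts of 12, 1 and 7 in control, 1, 1 and 7 in Ako-3, and 35, 24 and 25 in Mko-3 libraries. All 3 Mko-3 libraries were above every other library, whereas control and Ako-3 libraries overlapped. HLA-C averaged 0.366 ± 0.290 CPM (SD, n = 3) in control, 0.172 ± 0.202 in Ako-3 and 1.66 ± 0.307 in Mko-3 cells. It rose by 2.09 on the log2 scale in Mko-3 against control cells (SE 0.45, 95% interval 1.16 to 3.02, edgeR adjusted p = 4.9e-04). The fitted value was 2.75 without control replicate 1 and 1.67 without control replicate 2, the ends of the range over the libraries left out. Between the clones HLA-C was higher by 3.24 in Mko-3 cells (SE 0.49, edgeR adjusted p = 7.7e-08). HLA-C entered this test through the Mko-3 libraries alone. The difference was 2.77 without Ako-3 replicate 2. Without Ako-3 replicate 3 the remaining Ako-3 libraries held 1 count each, so that no fold is given for that setting. HLA-C was too low to be tested between Ako-3 and control cells.

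In the files the interval of HLA-B runs from 31269491 to 31357188 on chromosome 6 and covers 2640 bases, or 78.1%, of HLA-C on the same strand. In GENCODE release 44 HLA-B runs from 31353872 to 31367067 and does not meet HLA-C. HLA genes are also among the most polymorphic human genes, and the files hold the primary chromosomes and unplaced scaffolds. How reads shared by these genes were assigned is not given in the sources used here, and its part in the low counts of HLA-B and HLA-C was not tested.

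HLA-E, a non-classical heavy chain that presents leader peptides of other class I molecules to the natural killer receptor NKG2A, was the most abundant heavy chain among the members. Its counts were 1845, 1124 and 1594 in control, 1086, 1367 and 1172 in Ako-3, and 1082, 971 and 851 in Mko-3 libraries. After scaling, every library of either clone was below every control library, at 74.2 to 99.1 CPM in control, 66.3 to 69.6 in Ako-3 and 55.5 to 61.3 in Mko-3 cells. HLA-E fell by 0.37 in Ako-3 (SE 0.09, edgeR adjusted p = 0.0014) and fell by 0.62 in Mko-3 cells (SE 0.09, edgeR adjusted p = 9.5e-06), on the log2 scale. It passed the adjusted p but not the fold threshold in either comparison. Mko-3 cells were also below Ako-3 cells, by −0.24 (SE 0.06, edgeR adjusted p = 4.5e-04).

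B2M, the light chain shared by all class I molecules, had counts of 7203, 4770 and 6755 in control, 5742, 6912 and 5739 in Ako-3, and 7335, 6771 and 5993 in Mko-3 libraries. The groups overlapped between each clone and control. The log2 fold change was −0.07 in Ako-3 (95% interval −0.21 to 0.08, edgeR adjusted p = 0.46) and 0.14 in Mko-3 cells (95% interval −0.01 to 0.28, edgeR adjusted p = 0.10). Neither difference passed the test. In Mko-3 cells B2M passed the adjusted p without control replicate 1 (0.20, edgeR adjusted p = 0.019), with no low-count filter (0.17, edgeR adjusted p = 0.029) and in 1 fit of all 9 libraries (0.15, edgeR adjusted p = 0.048). In Ako-3 cells it passed without control replicate 2 (−0.15, edgeR adjusted p = 0.027). Between the clones B2M was higher by 0.20 in Mko-3 cells (SE 0.04, edgeR adjusted p = 1.6e-05), in all 3 libraries.

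TAP1 and TAP2 pair to form the peptide transporter. TAP1 passed the adjusted p in both clones and TAP2 in neither, and the difference between the genes was not tested. TAP1 counts were 56, 42 and 81 in control, 87, 146 and 105 in Ako-3, and 134, 109 and 103 in Mko-3 libraries. Every library of both clones was above every control library. TAP1 rose by 0.86 in Ako-3 (SE 0.20, edgeR adjusted p = 0.0014) and by 0.98 in Mko-3 cells (SE 0.19, edgeR adjusted p = 2.0e-04), on the log2 scale, which passed the adjusted p but not the fold threshold. Control replicate 3 was the highest control library, and without it TAP1 was called in both clones, at 1.11 and 1.23. In Mko-3 cells it was also called without Mko-3 replicate 2 (1.05) and without Mko-3 replicate 3 (1.00). The clones did not differ beyond their spread (0.12, 95% interval −0.19 to 0.43, edgeR adjusted p = 0.58).

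TAP2 counts were 63, 47 and 40 in control, 40, 88 and 58 in Ako-3, and 75, 67 and 56 in Mko-3 libraries. Ako-3 overlapped with control, and all Mko-3 libraries were higher than control after scaling. The log2 fold change was 0.24 in Ako-3 (95% interval −0.26 to 0.75, edgeR adjusted p = 0.43) and 0.42 in Mko-3 cells (95% interval −0.02 to 0.87, edgeR adjusted p = 0.10). TAP2 did not pass the test in either clone. In the files TAP2 lies wholly inside AL669918.1, which had 0 counts in every library, and TAP1 lies wholly inside the interval of PSMB9 on the opposite strand. The library protocol does not mark strand, so reads from overlapping genes cannot be told apart by strand.

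PSMB8, the inducible subunit that takes the place of PSMB5, had counts of 12, 14 and 22 in control, 19, 47 and 48 in Ako-3, and 49, 46 and 42 in Mko-3 libraries. The 3 Mko-3 libraries were close together and above every control library. In Ako-3 cells replicate 1 was low, at 1.16 CPM, within the control range of 0.645 to 1.22 CPM, and replicates 2 and 3 were above it. PSMB8 rose by 1.53 in Mko-3 (SE 0.30, edgeR adjusted p = 1.9e-04) and by 1.18 in Ako-3 cells (SE 0.36, edgeR adjusted p = 0.0095), on the log2 scale. The Ako-3 call was lost without control replicate 1 (0.96, edgeR adjusted p = 0.044) and without Ako-3 replicate 3 (0.95, edgeR adjusted p = 0.075). In the files PSMB8 shares 568 bases with PSMB9 and 618 bases with the antisense gene PSMB8-AS1, which had at most 3 counts in any library.

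PSMB9, the inducible subunit that takes the place of PSMB6, lies head to head with TAP1. Its counts were 7, 4 and 6 in control, 5, 20 and 17 in Ako-3, and 6, 15 and 11 in Mko-3 libraries. It was too low to be tested against control, and 1 library of each clone lay within the control range. Without the low-count filter the log2 fold change was 1.25 in Ako-3 (edgeR adjusted p = 0.086) and 0.96 in Mko-3 cells (edgeR adjusted p = 0.25), which did not pass. In Ako-3 cells PSMB9 was called in 1 fit of all 9 libraries (1.24, edgeR adjusted p = 0.049) and without Ako-3 replicate 1 (1.59, edgeR adjusted p = 0.016). In Mko-3 cells it was called under none of the alternatives that tested it, with adjusted p from 0.065 to 0.25. Between the clones the difference was −0.30 (95% interval −1.19 to 0.59, edgeR adjusted p = 0.63).

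**Figure D2:**
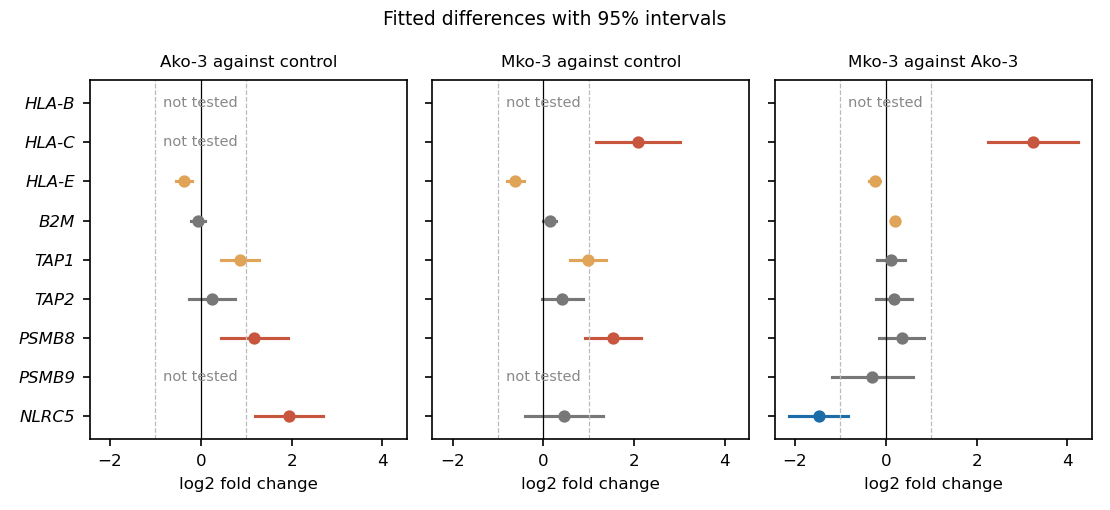
Fitted log2 fold change of each gene (horizontal axes) in the 3 comparisons, with bars for the 95% interval and dashed lines at −1 and 1. Red marks genes called higher, blue genes called lower, yellow genes that passed the adjusted p alone and grey genes that passed neither. HLA-C stood highest in the comparison of the clones, at 3.24, and NLRC5 lowest, at −1.48.

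NLRC5, the class I transactivator, had counts of 14, 9 and 8 in control, 55, 38 and 30 in Ako-3, and 12, 17 and 13 in Mko-3 libraries. All Ako-3 libraries were above every library of the other groups, and Mko-3 overlapped with control. NLRC5 rose by 1.94 in Ako-3 cells on the log2 scale (SE 0.36, 95% interval 1.19 to 2.70, edgeR adjusted p = 1.6e-04). In Mko-3 cells the difference was 0.46 (95% interval −0.39 to 1.32, edgeR adjusted p = 0.36), and it did not pass. In both of these tests against control only the knockout group had all 3 libraries above the low-count cutoff for NLRC5, with 2 control libraries above it. Mko-3 cells were below Ako-3 cells by −1.48 (SE 0.33, edgeR adjusted p = 1.3e-04). HLA-C and NLRC5 therefore separated the clones in opposite directions, with NLRC5 higher in Ako-3 and HLA-C higher in Mko-3 cells.

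Levels were compared between genes in FPKM, which divides by gene length. B2M stood at 58.5 ± 6.22 FPKM (SD, n = 3) in control cells, followed by HLA-E at 29.0 ± 4.14 FPKM. TAP1 had 0.706 ± 0.191 FPKM, TAP2 0.450 ± 0.0946 and PSMB8 0.307 ± 0.0949. The ranges of TAP1 and TAP2 in control did not overlap, and the ranges of TAP2 and PSMB8 did, as did those of PSMB8 and HLA-C. HLA-C, PSMB9 and NLRC5 averaged 0.145, 0.105 and 0.0477 FPKM, and HLA-B 0.0250. The control ranges of HLA-C and PSMB9 overlapped, and so did those of NLRC5 and HLA-B, whereas PSMB9 lay above NLRC5 in all 3 libraries. The gene length in the files was 6079 bases for B2M, against 3121 exonic bases in GENCODE release 44, so the B2M level per length rests on the longer model. The same order placed B2M and HLA-E first in Ako-3 (56.0 and 22.6 FPKM) and Mko-3 cells (64.9 and 19.1 FPKM).

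**Figure D3:**
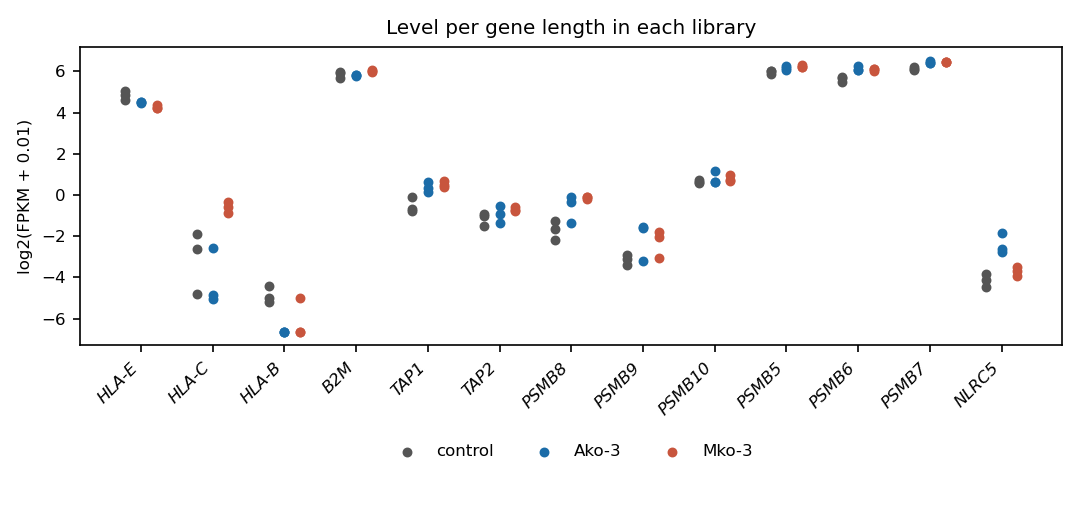
Level per gene length, as log2(FPKM + 0.01), of the members and the proteasome subunits (horizontal axis) in each library, coloured by group. A gene at 0 sits at the bottom of the axis, as HLA-B did in all Ako-3 libraries. B2M and the constitutive proteasome subunits were near the top, and the inducible subunits PSMB8 and PSMB9 were far below them.

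The inducible proteasome subunits were set against the constitutive ones they replace. PSMB8 was 0.501 ± 0.182% (SD, n = 3) of PSMB5 in FPKM in control, 0.963 ± 0.343% in Ako-3 and 1.19 ± 0.0476% in Mko-3 cells. The Mko-3 libraries, at 1.16 to 1.25%, were above the control libraries, at 0.332 to 0.694%, whereas Ako-3 libraries, at 0.570 to 1.21%, overlapped with control. PSMB9 was 0.212 ± 0.0432% of PSMB6 in control, 0.348 ± 0.178% in Ako-3 and 0.301 ± 0.119% in Mko-3 cells, with overlapping groups. PSMB10 was 2.21 ± 0.0508% of PSMB7 in control, 2.03 ± 0.514% in Ako-3 and 1.99 ± 0.210% in Mko-3 cells. With 3 libraries a group the exact permutation test cannot go below p = 0.10, so these ratios are given as descriptions.

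**Figure D4:**
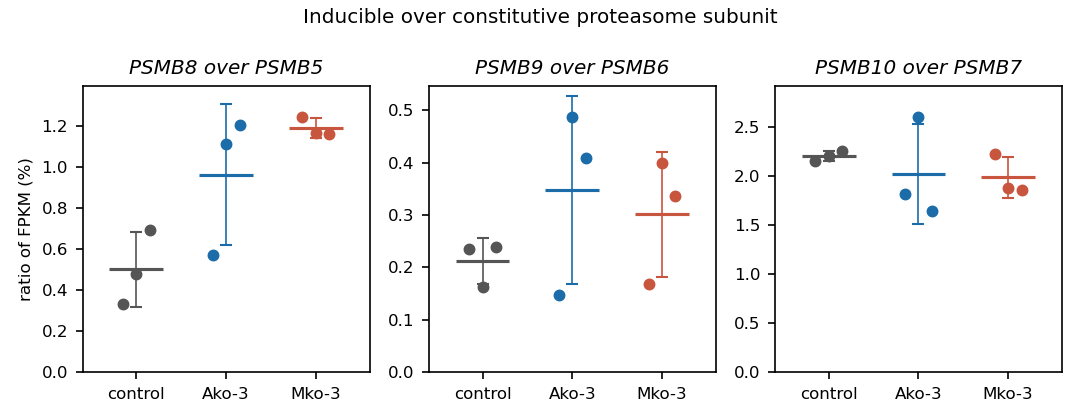
Ratio of FPKM of each inducible subunit to the constitutive subunit it replaces, in percent (vertical axes, from 0), for each library, with the group mean and SD as bars. PSMB8 over PSMB5 was between 1.16 and 1.25% in the 3 Mko-3 libraries, above all control libraries.

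The constitutive subunits themselves rose modestly. PSMB5, PSMB6 and PSMB7 were higher by 0.20, 0.50 and 0.31 on the log2 scale in Ako-3 cells and by 0.27, 0.44 and 0.31 in Mko-3 cells, with edgeR adjusted p between 2.1e-05 and 0.021 over the 6 values. PSMB10, the inducible subunit encoded away from the MHC on chromosome 16, differed by 0.19 (edgeR adjusted p = 0.50) and 0.17 (edgeR adjusted p = 0.53). Of the 5 genes in the list of inducible proteasome and activator, none was called in either clone against control by edgeR, and none by DESeq2. At an adjusted p of at most 0.05 alone, 2 were higher in Ako-3, and 2 were higher and 1 lower in Mko-3 cells. The share of all genes higher by this rule was 25.5% in Ako-3 and 26.9% in Mko-3 cells, with 27.1% lower in Mko-3 cells. At an unadjusted p under 0.05 in edgeR, 3 of the list were higher and 1 lower in each. The share of all genes at that unadjusted rule was not computed.

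Other genes of the pathway were taken from lists, each given as counts among the genes tested. Some counts are at an unadjusted edgeR p under 0.05, for which the share of all genes was not computed. That share cannot be below the 49.9% in Ako-3 and 54.0% in Mko-3 cells that passed the adjusted p. Of 11 tested class I heavy chains and class I-like molecules in Ako-3 cells, AZGP1 was called higher and ULBP1 and ULBP2 were called lower. Over all genes 3.52% were called higher and 5.00% lower in Ako-3 cells. AZGP1, a secreted class I-like glycoprotein, rose by 1.55 in Ako-3 cells (edgeR adjusted p = 2.0e-07). ULBP1 and ULBP2, ligands of the activating receptor NKG2D, fell by 1.53 (edgeR adjusted p = 2.1e-05) and fell by 1.07 (edgeR adjusted p = 1.1e-04). In Mko-3 cells ULBP1 alone of 10 tested was called, where 11.0% of all genes were, and it fell by 1.93 (edgeR adjusted p = 5.6e-06). ULBP2, not called there, averaged 3.18 CPM in Mko-3 cells against 5.95 in control. Between the clones AZGP1 was lower in Mko-3 cells by −1.27 (edgeR adjusted p = 6.1e-11). It was the only gene called of 11 tested there, where 5.73% of all genes were called. The median log2 fold change of the list was 0.30 in Ako-3 and −0.17 in Mko-3 cells.

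Among 10 genes of peptide loading in the endoplasmic reticulum, none was called in Ako-3 by edgeR or DESeq2 (5 higher and 1 lower at an unadjusted edgeR p under 0.05), and 1 was called in Mko-3 cells. That gene was HSPA5, the endoplasmic reticulum chaperone BiP, which rose by 1.05 (edgeR adjusted p = 7.9e-10). HSPA5 averaged 618 CPM in control, 1078 in Ako-3 and 1285 in Mko-3 cells. In Ako-3 cells the largest log2 fold change of the list was 0.80, under the fold threshold. Over all genes 8.52% were called in Ako-3 and 11.0% in Mko-3 cells. By adjusted p alone 5 were higher and 1 lower in Ako-3, and 6 were higher and none lower in Mko-3 cells. The share of all genes higher by this rule was 25.5% and 26.9%. The list median was 0.25 and 0.47. Of 10 cytosolic peptidases, which trim peptides, none was called by edgeR or DESeq2, and 5 were higher in each clone by adjusted p alone and by unadjusted p under 0.05. Of 12 tested genes of class I trafficking and turnover, none was called by either tool, and 6 were higher and 2 lower at an unadjusted edgeR p under 0.05 in each clone. By adjusted p alone 5 of them were higher and 2 lower in Ako-3, and 4 higher and 2 lower in Mko-3 cells. Of 6 tested class II presentation genes, none was called by either tool, and 1 was higher and 2 lower at an unadjusted edgeR p under 0.05 in each clone. By adjusted p alone 2 of them were lower in Ako-3, and 1 was higher and 2 lower in Mko-3 cells. The other 10 of the 16 class II genes were too low to be tested. Over all genes 25.5% and 26.9% were higher by adjusted p alone, and 24.4% and 27.1% lower.

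NLRC5 acts with a set of promoter-bound factors, tested here as 9 genes with CIITA, the class II transactivator. None was called in Ako-3 cells by edgeR or DESeq2, and 3 were higher at an unadjusted edgeR p under 0.05. CIITA was called in Mko-3 cells, where it rose by 1.07 (SE 0.37, edgeR adjusted p = 0.019), but it was not called by DESeq2. Its mean was 0.641 CPM in control, 1.27 CPM in Ako-3 and 1.36 CPM in Mko-3 cells. In Ako-3 cells the largest log2 fold change of the list was 0.98, just under the fold threshold. Over all genes 11.0% were called in Mko-3 and 8.52% in Ako-3 cells. By adjusted p alone 3 of the 9 were higher in Ako-3 and 4 in Mko-3 cells, and none was lower. Over all genes the share higher was 25.5% and 26.9%. Of 10 chromatin repressors of class I genes, none was called by either tool. At an unadjusted edgeR p under 0.05, 6 were higher and 2 lower in Ako-3, and 9 were higher and 1 lower in Mko-3 cells. Of these genes, 6 were higher by adjusted p alone in Ako-3 and 9 in Mko-3 cells, with 1 lower in each. Over all genes 25.5% and 26.9% were higher, and 24.4% and 27.1% lower. The median of the repressor list was 0.36 and 0.35.

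Of 20 interferon signalling genes tested, 12 were lower and 2 higher by adjusted p alone in Ako-3, and 11 were lower and 4 higher in Mko-3 cells, where 24.4% and 27.1% of all genes were lower. IRF8, a transcription factor of the interferon response, fell by 2.53 in Ako-3 (edgeR adjusted p = 9.1e-06) and fell by 2.97 in Mko-3 cells (edgeR adjusted p = 4.3e-06). In Mko-3 cells IRF7, a factor that drives type I interferon genes, fell by 1.28 (edgeR adjusted p = 4.0e-04) and SOCS3, a feedback inhibitor of JAK/STAT signalling, fell by 1.19 (edgeR adjusted p = 1.9e-08). Neither IRF7 nor SOCS3 was called in Ako-3 cells, where they averaged 2.03 and 26.9 CPM, against 3.18 and 47.4 in control. IRF1, added after its values were seen because it drives class I genes, fell by 0.85 in Ako-3 (edgeR adjusted p = 3.0e-06) and fell by 0.62 in Mko-3 cells (edgeR adjusted p = 2.9e-05).

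Of 10 NF-kB subunits and regulators, 7 were lower by adjusted p alone in Ako-3 and 6 in Mko-3 cells. Over all genes 24.4% and 27.1% were lower. The other 3 and 4 genes of the list did not pass. The list holds the subunits NFKB1, NFKB2, RELA, RELB and REL and the regulators NFKBIA, NFKBIE, IKBKB, TNFAIP3 and TRAF1. Its counts and median therefore do not describe the subunits alone. RELB, a subunit of the noncanonical pathway, fell by 1.56 in Ako-3 (edgeR adjusted p = 6.1e-11) and fell by 1.26 in Mko-3 cells (edgeR adjusted p = 6.5e-10). NFKB2, its partner, fell by 1.19 in Ako-3 (edgeR adjusted p = 5.4e-11), and TRAF1, a signalling adaptor, fell by 1.07 in Mko-3 cells (edgeR adjusted p = 3.4e-07). Neither was called in the other clone, where its mean was also below control. NFKB2 averaged 159 CPM in control and 81.0 in Mko-3 cells, and TRAF1 16.3 in control and 9.26 in Ako-3 cells. The list median was −0.57 in Ako-3 and −0.35 in Mko-3 cells.

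Genes induced by interferon gamma outside antigen presentation were mixed. Of 30 found, 22 were tested in each clone. In Ako-3 cells 3 were called higher and 2 lower, where 3.52% and 5.00% of all genes were. In Mko-3 cells 4 were called higher and none lower, where 3.82% and 7.22% of all genes were. BST2, which tethers budding virus, rose by 3.93 in Ako-3 (edgeR adjusted p = 3.8e-12) and by 1.04 in Mko-3 cells, where its libraries overlapped with control (edgeR adjusted p = 0.018). SP100, a nuclear body protein, rose by 1.05 in Ako-3 (edgeR adjusted p = 3.8e-04) and by 1.47 in Mko-3 cells (edgeR adjusted p = 7.5e-06). The chemokine CXCL10 rose by 2.01 (edgeR adjusted p = 8.3e-09) in Ako-3 cells. GBP2, a guanylate-binding protein, fell by 1.35 (edgeR adjusted p = 4.9e-07), while GBP5 had counts of 41, 22 and 40 in control and 1, 2 and 1 in Ako-3 libraries, at the floor, so that no fold is given. In Mko-3 cells APOL1, a trypanolytic apolipoprotein, rose by 2.42 (edgeR adjusted p = 5.4e-08) and GBP1 by 1.19 (edgeR adjusted p = 2.5e-04).

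Between the clones 5 of these 22 were called higher and 3 lower in Mko-3 cells, against 2.26% and 3.47% of all genes. OAS1, which senses double-stranded RNA, was higher by 1.11 (edgeR adjusted p = 9.9e-21), and GBP2 was higher by 1.30 (edgeR adjusted p = 1.1e-19). BST2 was lower by −2.89 (edgeR adjusted p = 2.7e-15) and CXCL10 by −1.48 (edgeR adjusted p = 2.2e-14). GBP5 was among the 5 higher genes, with Ako-3 at the floor.

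**Figure D5:**
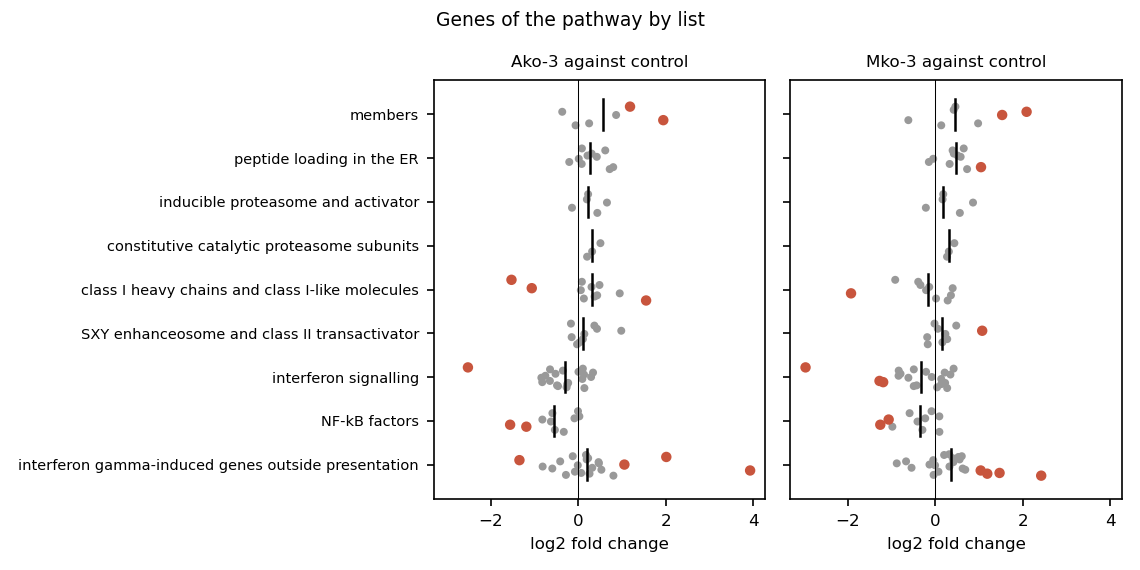
Fitted log2 fold change against control (horizontal axes) of the tested genes of 9 lists (vertical axis) in Ako-3 (left) and Mko-3 cells (right), leaving out genes with a group at the floor. Each point is 1 gene, red and larger where called, and black ticks mark the list medians. The list labelled NF-kB factors, which also holds regulators, has medians of −0.57 and −0.35.

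The genes most like TAP1 in their pattern over the 9 libraries were FXYD5, AC112220.2 and SLC36A1, with root mean square differences of centred log2 CPM of 0.15, 0.16 and 0.16. Those most like PSMB9 were FOXN3-AS1, NDUFV2-AS1 and GATD3A, at 0.19, 0.19 and 0.23. The likeness was measured over 4897 candidate genes with a mean of at least 1 CPM, and it describes 9 libraries in 3 groups that share their clone. No likeness was computed for HLA-B, which was at the floor.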

How the data were processed

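RNA of 9 Huh-7 libraries (3 control, 3 Ako-3, 3 Mko-3) was sequenced after poly-A selection. The authors aligned reads to hg38 with HISAT2 2.0.5, counted them on genes with featureCounts 1.5.0-p3 and deposited raw counts of 58735 genes. The annotation release is not given in the sources used here, and the submitters' processing notes also list GRCh37/hg19. The authors also deposited FPKM, which from the values are the counts divided by gene length and by the DESeq2 size factor times a constant. Reads per library ranged from 14638727 to 20179760, so genes near 10 counts have wide errors.

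Counts were tested with edgeR 4.0.16 in R 4.3.3 (TMM, filterByExpr with its minimum set to 10 counts, robust quasi-likelihood), each comparison being fitted on its own 6 libraries, with Benjamini-Hochberg adjustment over all genes tested. The SE was the log2 fold change divided by the square root of F, and 95% intervals used the t distribution of the fit. CPM were scaled by TMM over 9 libraries. Alternatives included DESeq2 1.42.0, other scalings and filters, 1 fit of all libraries, a replicate block and leaving out each library. The libraries were biological replicates of 1 clone or line per the labels, so p-values measure the spread between these cultures. A group with at most 3 counts in every library was treated as at the floor.

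The members and lists were chosen with earlier results of these data known. The genes named are APOB, MTTP, the 9 members, up to 3 called genes per list and comparison by smallest adjusted p, the proteasome subunits PSMB5, PSMB6, PSMB7 and PSMB10, and the 3 genes most like TAP1 and PSMB9. IRF1 and the markers LYZ and PTPRC were named after their values were seen. Promoter sequences came from RefSeq (GRCh38.p14) and gene models from GENCODE release 44.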

Additional observations from a re-analysis of the deposited data

Results flagged for a closer look

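HLA-C differed between the clones: it was higher in Mko-3 than in Ako-3 cells by 3.24 on the log2 scale, in all 3 libraries, by edgeR's test of the clones against each other. It passed the low-count filter through the Mko-3 libraries alone, the Ako-3 libraries had 1, 1 and 7 counts, and 78.1% of its interval is shared with HLA-B in the files, so the size of the difference is uncertain. NLRC5 differed in the opposite direction, by −1.48 on the log2 scale in Mko-3 against Ako-3 cells, also in all 3 libraries and by the same test.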

How the results depend on the processing

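The number of the 9 genes called was 2 in each comparison. By adjusted p alone it was 4 in Ako-3 against control, 4 in Mko-3 against control and 4 between the clones, with 7880, 8509 and 6462 of all genes passing in place of 1345, 1739 and 890. With at least 10 counts required in every library it was 1 in each comparison. There, 841, 1113 and 511 genes were called of 14232, 14080 and 14101 tested, in place of 15787, 15745 and 15528 tested. NLRC5 was then no longer tested in Ako-3 against control, nor HLA-C in Mko-3 against control or between the clones. Leaving out each library in turn gave 1 to 3 genes in Ako-3 against control, 2 to 3 in Mko-3 against control and 2 between the clones. The lowest count in Ako-3 came without control replicate 1 and without Ako-3 replicate 3. TAP1 in Mko-3 cells passed the fold threshold with no low-count filter (1.01) and with the replicate block (1.00). Without Ako-3 replicate 1, TAP2 between the clones turned to −0.0099 (range −0.0099 to 0.43 over the libraries left out), and without Mko-3 replicate 1 PSMB9 turned to 0.015 (range −0.65 to 0.015). Neither had passed the test, and the cause was not tested. PSMB9, not tested in the Ako-3 comparison, was called there in 1 fit of all 9 libraries and without Ako-3 replicate 1. Under the alternatives that kept all libraries, 140 values of members tested in the main fit kept their direction and whether they were called. The 2 that were newly called were the TAP1 values in Mko-3 cells given above. The replicate numbers did not pair the libraries (same-number correlations −0.12 to 0.09 over 9 pairs), and the fit with a replicate block called 2, 3 and 2 members. Counts near 10 in at least 1 group (HLA-C, PSMB9, NLRC5, PSMB8) limit the precision of those genes.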
